A study of Mus musculus with 7 samples.

Results

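The major histocompatibility complex (MHC) class I genes were examined in microglia enriched from mouse dorsal hippocampus. The set consisted of 8 heavy chain genes, H2-K1, H2-D1, H2-Q4, H2-Q6, H2-Q7, H2-T22, H2-T23 and H2-M3, and of B2m, the light chain gene. They were taken by symbol from a table of 55401 genes, and all 9 were among the 19199 genes abundant enough to be tested. The mice were C57BL/6, aged 6 to 8 weeks, and male per the series title. All had AAV-RAM-Cre injected into the dorsal part of the dentate gyrus, a virus whose RAM promoter drives Cre in neurons activated by experience. In the ATG7 group (3 libraries) a Cre-dependent AAV-Dio-Atg7-Flag was given with it, which directs expression of a Flag-tagged copy of the autophagy gene Atg7 to these neurons. The control group (4 libraries) was given AAV-Dio-EYFP instead, and no group without virus was included in the files used here. Cells were enriched with CD11b beads, and the labels do not say whether a library came from 1 mouse or from several.

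A class I molecule consists of a heavy chain, which holds a peptide made inside the cell, and of beta-2 microglobulin, the product of B2m, which most heavy chains need to reach the cell surface. The classical molecules H2-K and H2-D present peptides to CD8 T cells, and the non-classical Q, T and M molecules serve more specialised receptors. Class I transcription is low in resting brain cells and is known to be induced by interferons, through interferon-stimulated response elements (ISREs), and by NF-kB and the coactivator NLRC5.

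All 9 genes were higher in every ATG7 library than in every EYFP library, and 6 of them passed the test across all genes. The promoters are shown first, as a description of sequence, and their part in the levels was not tested. Below are the stretches of the 250 bases before each RefSeq start site (GRCm38.p6) that hold ISRE-type and NF-kB-type matches, with 10 bases on either side. Capitals mark the matches: TTTC and TTC (short form) or TTTC and TTTC (long form) 2 bases apart for the ISRE type, and GGG and CCC 4 bases apart for the NF-kB type. Both strands were searched, and overlapping NF-kB-type matches are capitalised as 1 run. In B2m the ISRE-type match lies on the opposite strand and therefore reads as the reverse complement.

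H2-K1 (chr17:34000419-34000484, minus strand): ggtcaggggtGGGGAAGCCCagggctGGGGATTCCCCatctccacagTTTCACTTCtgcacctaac
H2-D1 (chr17:35262897-35262962, plus strand): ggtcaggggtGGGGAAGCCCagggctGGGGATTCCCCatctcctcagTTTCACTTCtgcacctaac
H2-Q4 (chr17:35379434-35379482, plus strand): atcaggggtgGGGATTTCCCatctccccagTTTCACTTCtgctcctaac
H2-Q6 (chr17:35424651-35424716, plus strand): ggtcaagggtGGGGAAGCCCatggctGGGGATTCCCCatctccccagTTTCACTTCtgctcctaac
H2-Q7 (chr17:35439012-35439060, plus strand): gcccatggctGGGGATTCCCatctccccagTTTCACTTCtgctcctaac
H2-T22 (chr17:36042914-36042943, minus strand): attggcttagTTTCACTTTCgaatccccaa
H2-T23 (chr17:36032806-36032835, minus strand): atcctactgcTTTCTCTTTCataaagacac
H2-M3 (chr17:37270123-37270151, plus strand): tcctctgaggTTTCACTTCtctgtaactc
B2m (chr2:122147538-122147567, plus strand): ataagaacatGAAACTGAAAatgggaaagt

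An ISRE-type match was present in all 9 promoters, against 8.91% of the 27025 promoters of the same length in the RefSeq table. The short form occurred in 6 of them (6.34% of all promoters) and the long form in H2-T22, H2-T23 and B2m (3.04%). An NF-kB-type match was present in H2-K1, H2-D1, H2-Q4, H2-Q6 and H2-Q7, against 2720 of the 27025 promoters. These 5 also held the ISRE-type match downstream of it, and 0.581% of all promoters held both types. The 66-base stretches of H2-K1 and H2-D1 differed at 1 base, and that of H2-Q6 differed from either at 4. Matches in such similar promoters are not independent of each other, and the shares were not tested. In H2-T22, H2-T23, H2-M3 and B2m the NF-kB-type letters were not found in this window at the 4-base spacing that was searched. B2m (gggaaagtccc) and H2-T22 (gggagagtccc) hold GGG and CCC 5 bases apart. That wider spacing was not searched or counted over all promoters. H2-M3 holds ggagattcccc upstream of its ISRE-type match, where H2-K1 holds GGGGATTCCCC, and such variant letters were not searched either. H2-T22, H2-T23, H2-M3 and B2m therefore cannot be said to lack an NF-kB-type site. The Y box letters CCAAT were found in all 9 promoters (34.5% of all promoters), and the letters TGACG, the core of a cyclic AMP response element, in 7 (17.9%), all but H2-Q6 and H2-T23. The letters TATAAA were found in 3 (13%), namely H2-D1, H2-Q4 and B2m. A match describes the letters and is not a measured binding site.

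**Figure D1:**
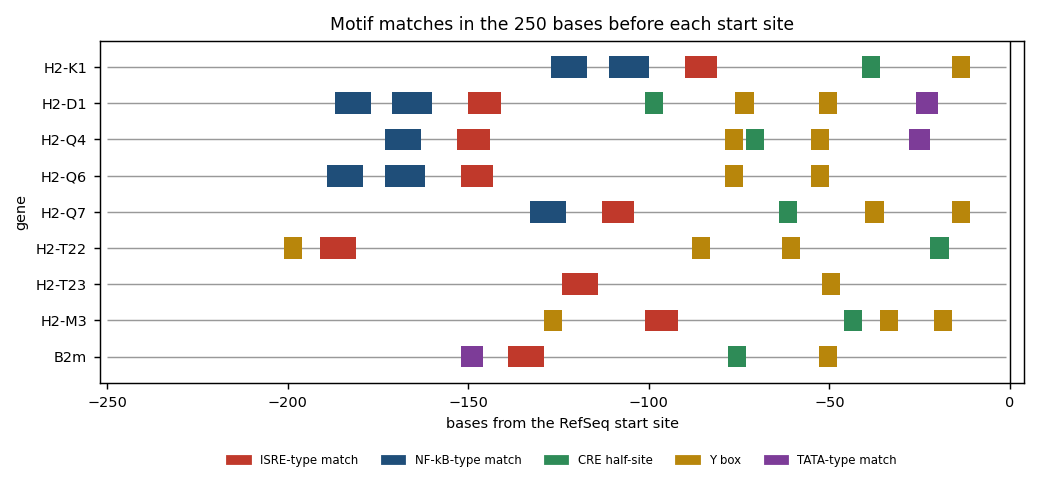
Positions of motif matches in the 250 bases before the RefSeq start site of each of the 9 genes (horizontal axis, bases from the start site, to scale, both strands). All 9 genes have an ISRE-type match (red), and the 5 genes from H2-K1 to H2-Q7 have an NF-kB-type match (blue) to the left of it.

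The libraries held between 35934210 and 55217119 counts, and levels are CPM (counts scaled to a common library total), with library totals adjusted by trimmed means of M values (TMM). A count of 3 corresponded to between 0.0546 and 0.0820 CPM, far below every class I gene. Atg7 averaged 35.6 ± 1.68 CPM over the 4 control libraries and 34.9 ± 2.76 CPM (both ± SD) over the 3 ATG7 libraries, and since the transgene was directed at neurons this does not check the labels. The library EYFP 3 stood apart in the female-specific transcript Xist, at 938.5 CPM against 0.151 to 0.574 CPM elsewhere, and results are therefore given with and without it. The 11 microglial markers summed to between 22590 and 27640 CPM, while 11 choroid plexus markers, led by Ttr, summed to between 46990 and 73250 CPM. Markers of the choroid plexus, a neighbouring tissue that makes cerebrospinal fluid, thus exceeded those of microglia in every library. In such bulk libraries a change in the number of cells of a type and a change in RNA per cell cannot be told apart.

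The classical heavy chains rose to 2.03 (H2-K1) and 2.07 (H2-D1) times their mean control CPM. H2-K1 (ENSMUSG00000061232, chromosome 17, 33996017 to 34000347) was at 695, 612, 400.5 and 552 CPM in EYFP 1 to 4, against 1036, 1185 and 1216 CPM for ATG7 1 to 3. The lowest ATG7 library was at 1.49 times the level of the highest EYFP library. The control libraries averaged 564.9 ± 124.3 CPM and the ATG7 libraries 1146 ± 96.2 CPM (± SD, n of 4 and 3), and the log2 fold change was 1.02, standard error (SE) 0.157, and the adjusted p 0.0184 (edgeR quasi-likelihood test).

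H2-D1 (ENSMUSG00000073411, chromosome 17, 35262730 to 35267499) followed the same order of libraries. Its level was 962, 883, 550.2 and 759 CPM in EYFP 1 to 4, against 1493, 1701 and 1709 CPM for ATG7 1 to 3. The log2 fold change was 1.05, SE 0.162, and the adjusted p 0.0184 (edgeR). In both classical genes EYFP 1 was the highest and EYFP 3 the lowest of the controls, with a 1.74-fold and 1.75-fold range within EYFP, or 1.26-fold and 1.27-fold without EYFP 3.

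Among the 3 Q-region genes, H2-Q7 and H2-Q6 had the largest fold changes of the 9, and none of the 3 passed by edgeR, although all had an unadjusted p under 0.05. H2-Q7 (ENSMUSG00000060550, chromosome 17, 35439155 to 35443773), which encodes a Qa-2 antigen anchored to the membrane by a lipid, was at 52.5, 34.3, 16.3 and 35.6 CPM in EYFP 1 to 4. In ATG7 1 to 3 it was at 105.3, 130.7 and 116.8 CPM. The controls spanned 3.22-fold, and 1.53-fold without EYFP 3. Every ATG7 library was at least 2.00 times as high as the highest EYFP library. The log2 fold change was 1.77, SE 0.353, and the adjusted p 0.116 (edgeR).

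H2-Q6 (ENSMUSG00000073409, chromosome 17, 35424850 to 35430055), a close relative of H2-Q7, was at 87.7, 62.9, 26.1 and 60.1 CPM in EYFP 1 to 4, against 157.3, 188.5 and 173.0 CPM for ATG7 1 to 3. Its control libraries spread 3.36-fold, and 1.46-fold without EYFP 3, the lowest of them. The log2 fold change was 1.55, SE 0.366, and the adjusted p 0.169 (edgeR).

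H2-Q4 (ENSMUSG00000035929, chromosome 17, 35379617 to 35385290), another Q-region heavy chain, was at 80.2, 62.5, 38.5 and 58.8 CPM in EYFP 1 to 4, against 117.7, 132.7 and 125.4 CPM for ATG7 1 to 3. The groups did not overlap, and the log2 fold change was 1.06, SE 0.204, and the adjusted p 0.0732 (edgeR). Without EYFP 3, all 3 Q-region genes passed, at smaller fold changes of 0.90 for H2-Q4, 1.30 for H2-Q6 and 1.52 for H2-Q7 on the log2 scale (edgeR adjusted p = 0.00602, 0.00301 and 0.00301). They also passed with DESeq2 and with limma-voom (largest adjusted p = 0.0261, for H2-Q6 with limma-voom). Over all genes, DESeq2 called 406 higher and limma-voom 197, against 132 by edgeR in the reported fit.

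The T and M genes had smaller fold changes and less spread among the controls. H2-T23 (ENSMUSG00000067212, chromosome 17, 36029773 to 36032855) encodes Qa-1, which displays peptides from other class I leader sequences to inhibitory receptors of NK cells. It was at 181, 160.1, 145 and 155 CPM in EYFP 1 to 4, against 239, 277 and 292 CPM for ATG7 1 to 3. The controls spanned 1.25-fold, and 1.17-fold without EYFP 3. The log2 fold change was 0.75, SE 0.0965, and the adjusted p 0.00814 (edgeR), the smallest adjusted p of the set.

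H2-M3 (ENSMUSG00000016206, chromosome 17, 37270220 to 37274484) presents peptides that begin with N-formyl methionine, as in bacteria and mitochondria. It was at 44.6, 38.5, 32.2 and 39.8 CPM in EYFP 1 to 4, against 56.99, 64.8 and 66.9 CPM for ATG7 1 to 3. The log2 fold change was 0.70, SE 0.104, and the adjusted p 0.0143 (edgeR).

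H2-T22 (ENSMUSG00000056116, chromosome 17, 36037128 to 36042747), a ligand of gamma-delta T cell receptors that binds no peptide, was at 47.1, 47.0, 35.1 and 39.0 CPM in EYFP 1 to 4. In ATG7 1 to 3 it was at 57.4, 69.4 and 67.9 CPM. The gap between the groups was the smallest of the 9 genes, with the lowest ATG7 library at 1.22 times the level of the highest EYFP library. The log2 fold change was 0.63, SE 0.112, and the adjusted p 0.0283 (edgeR).

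B2m (ENSMUSG00000060802, chromosome 2, 122147686 to 122153083), the only one of the genes outside the MHC, was at 1572, 1588, 1135 and 1266 CPM in EYFP 1 to 4. In ATG7 1 to 3 it was at 2046, 2233 and 2414 CPM. The control libraries averaged 1390 ± 225.6 CPM and the ATG7 libraries 2231 ± 183.8 CPM (± SD, n of 4 and 3), and the log2 fold change was 0.68, SE 0.128, and the adjusted p 0.0372 (edgeR). B2m was the one gene that lost its call without EYFP 3, at a log2 fold change of 0.59 (edgeR adjusted p = 0.0555).

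**Figure D2:**
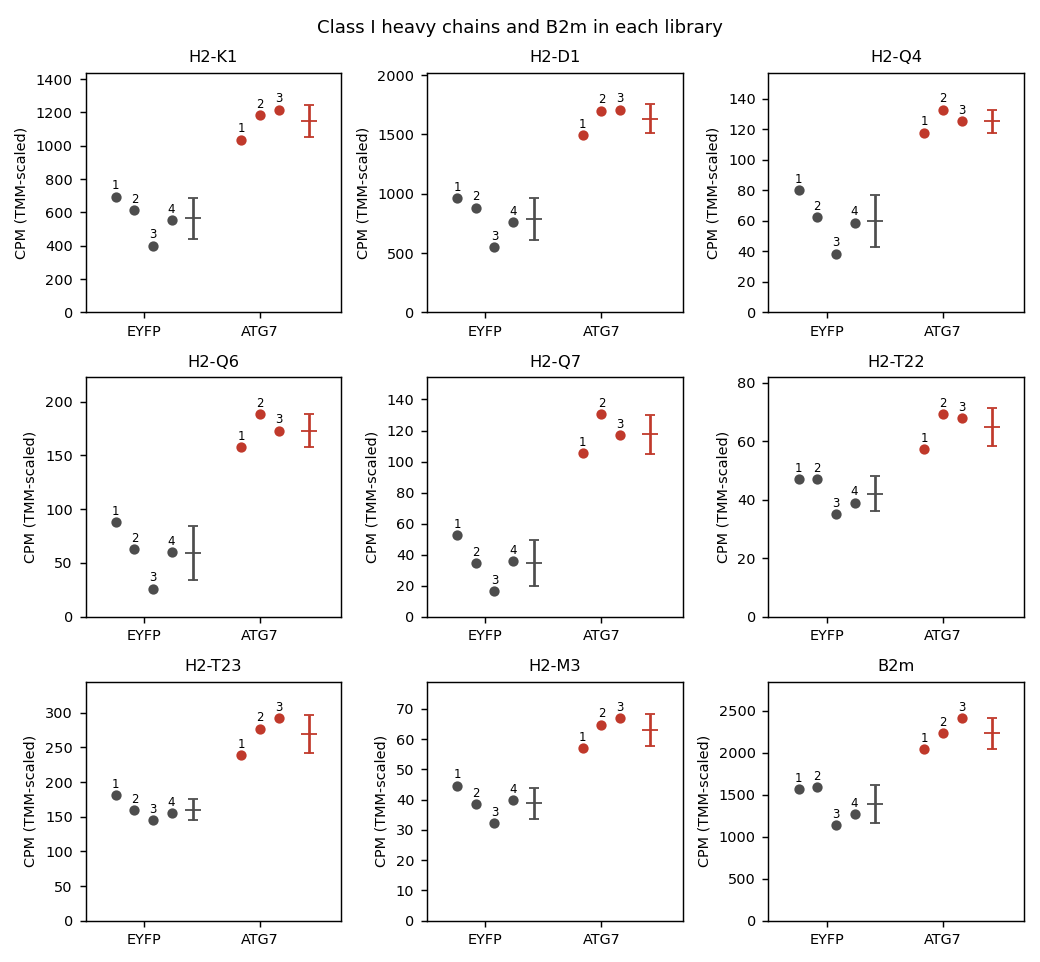
CPM (vertical axis, from 0) of each of the 9 genes in the 4 EYFP libraries (grey) and 3 ATG7 libraries (red), numbered by replicate, with the group mean and SD beside the points. In every panel all red points lie above all grey points, and EYFP 3 is the lowest grey point.

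Of the 9 genes, 6 were called higher at an adjusted p under 0.05 and none lower, where 0.688% of all genes tested were called higher. At an unadjusted p under 0.05, all 9 were higher, against 6.27% of all genes. The groups did not overlap in any of the 9, a separation with ATG7 higher that 6.33% of all genes showed. The median log2 fold change was 1.02 over the 9 genes and -0.00365 over all genes. The libraries kept nearly the same order from gene to gene. EYFP 1 was the highest control in 8 genes and EYFP 2 in B2m, EYFP 3 was the lowest control in all 9, and ATG7 1 was the lowest ATG7 library in all 9.

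The calls depended on single libraries. With EYFP 4, ATG7 2 or ATG7 3 left out, only H2-T23 passed in each case. Without EYFP 2 the genes that passed were H2-T22, H2-T23, H2-M3 and B2m, since H2-K1 and H2-D1 were at adjusted p = 0.0587 and 0.0517. Without EYFP 1, 8 passed (all but H2-Q6), and without ATG7 1, 5 passed (H2-K1, H2-D1, H2-T22, H2-T23 and H2-M3). Without EYFP 3, 8 passed (all but B2m), with log2 fold changes of 0.54 to 1.52. The calls over the whole table moved as well. Genes called higher numbered 27, 26 and 27 without EYFP 4, ATG7 2 and ATG7 3, and 85 without EYFP 2. They numbered 209, 135 and 141 without EYFP 1, ATG7 1 and EYFP 3, against 132 with all libraries. Over 19 alternative settings the log2 fold change of H2-T23 stayed between 0.68 and 0.83 and that of H2-D1 between 0.91 and 1.16. The direction was the same for all 9 genes in every setting.

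**Figure D3:**
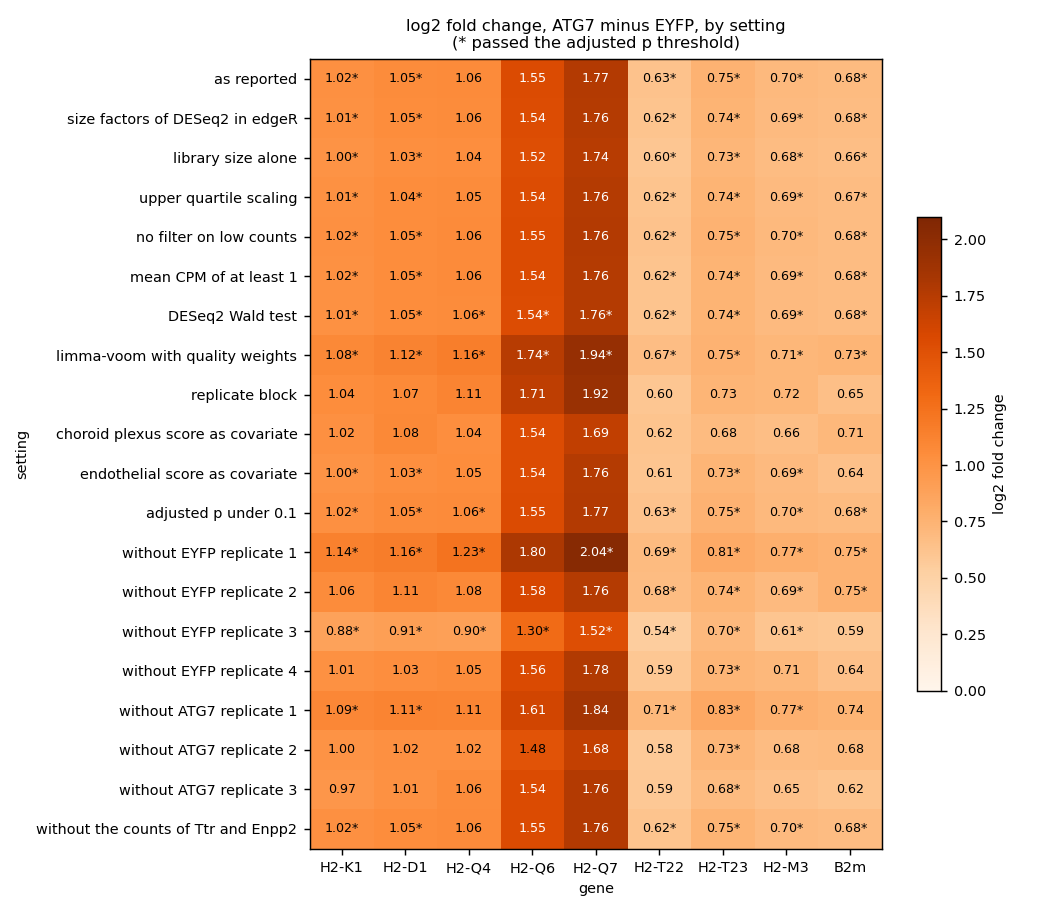
Log2 fold change (colour and number) of each of the 9 genes (columns) in the reported fit and under 19 other settings (rows), with an asterisk where the gene passed the adjusted p threshold. All values are above 0, and asterisks are missing from the rows of the replicate block and of the choroid plexus score.

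Compared per kilobase of annotated exon, B2m was the most abundant of the 9 at 1616 ± 262.4 CPM per kb (SD, n = 4) in EYFP. H2-D1 followed at 305.8 ± 69.6, then H2-K1 at 192.3 ± 42.3 and H2-T23 at 55.5 ± 5.27 CPM per kb. H2-Q6, H2-M3 and H2-Q4 lay at 28.4 ± 12.2, 27.0 ± 3.56 and 23.1 ± 6.58 CPM per kb, within each other's spread. H2-T22 at 12.3 ± 1.76 and H2-Q7 at 8.13 ± 3.47 CPM per kb were the lowest. In ATG7 the same 4 genes led, and H2-Q6 at 82.95 ± 7.48 CPM per kb (SD, n = 3) was then near H2-T23 at 93.3 ± 9.52 and above H2-Q4 at 48.3 ± 2.89 and H2-M3 at 43.7 ± 3.64. H2-Q7 at 27.6 ± 2.99 CPM per kb then lay above H2-T22 at 19.0 ± 1.91.

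The makeup of the heavy chain pool shifted in its minor parts. H2-K1 and H2-D1 together made up 76.3% ± 0.985 (SD, n = 4) of the summed heavy chain CPM per kb in EYFP and 76.5% ± 0.329 (SD, n = 3) in ATG7, so their joint share overlapped between the groups. The share of H2-Q7 was 0.825% to 1.54% in the EYFP libraries and 1.95% to 2.20% in the ATG7 libraries, and that of H2-Q6 was 2.70% to 5.24% and 5.91% to 6.48%. In the other direction, H2-T23 made up 7.81% to 10.8% in EYFP and 6.80% to 7.21% in ATG7. The share of H2-M3 was 3.77% to 4.83% and 3.23% to 3.32%, and that of H2-T22 was 1.72% to 2.21% and 1.38% to 1.46%. For these 5 genes the groups did not overlap. The shares of one pool are tied to each other and were not tested.

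**Figure D4:**
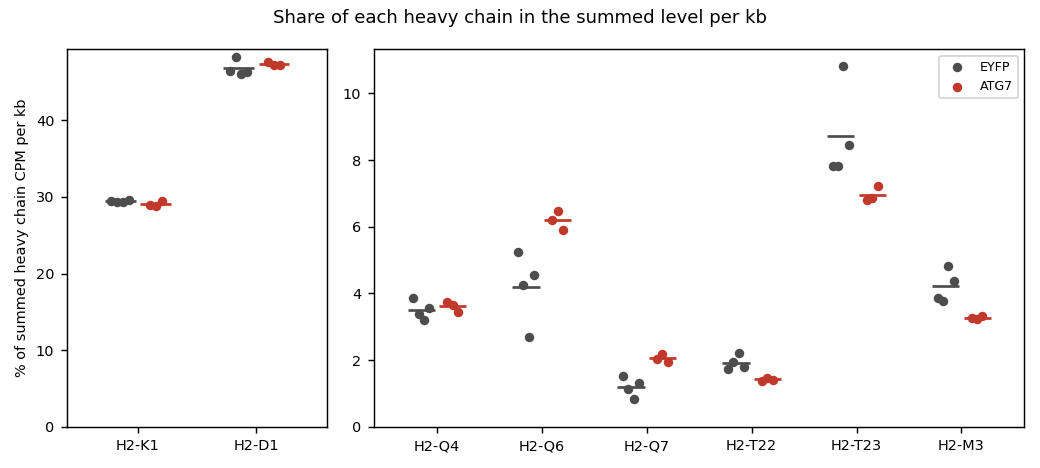
Share of each heavy chain gene in the summed heavy chain CPM per kb (vertical axis, percent, from 0) in each library, with horizontal lines at the group means. H2-K1, H2-D1 and H2-Q4 overlap between EYFP (grey) and ATG7 (red), H2-Q6 and H2-Q7 lie higher in ATG7, and H2-T22, H2-T23 and H2-M3 lie lower.

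Ratios of counts within a library do not depend on how libraries are scaled. The ratio of H2-D1 to H2-K1 was 1.38, 1.44, 1.37 and 1.38 in EYFP 1 to 4, against 1.44, 1.44 and 1.41 for ATG7 1 to 3, overlapping between the groups (difference of 0.03 on the log2 scale, exact permutation p = 0.229, two-sided). The ratio of H2-D1 to B2m was 0.612, 0.556, 0.485 and 0.5995 in EYFP and 0.730, 0.762 and 0.708 in ATG7. It was higher in all 3 ATG7 libraries, by 0.39 on the log2 scale (exact permutation p = 0.0286, the smallest the 35 splits allow, and 0.0429 adjusted over 3 ratios). The ratio of H2-K1 to B2m was likewise higher in all 3, by 0.35 (exact permutation p = 0.0286, adjusted 0.0429). Both classical heavy chains thus rose by more than their light chain. Leaving out any 1 library takes the smallest possible p above 0.05, and the differences then lay between 0.32 and 0.43 for H2-D1 and between 0.29 and 0.40 for H2-K1.

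Other class I genes from a list of 31 were measured beside the 9, of which 14 were abundant enough to test. H2-T24, a T-region heavy chain, rose from a mean of 49.9 ± 5.71 to 74.6 ± 8.00 CPM (± SD), by 0.58 on the log2 scale, SE 0.101 (edgeR, adjusted p = 0.0262). H2-Q10, a Q-region heavy chain known as a secreted liver protein, was at 0.640 ± 0.225 and 1.75 ± 0.113 CPM, higher by 1.46 on the log2 scale, SE 0.283 (edgeR, adjusted p = 0.0437). It had 20 to 89 counts per library and shares sequence with the far more abundant H2-Q7 and H2-K1, so its value is uncertain. Of the 100-base windows of H2-Q7, 5.56% also occur in H2-Q10, and of those of H2-K1, 0.957%. With 50-base windows these shares were 14% and 5.18%. The share of the windows of H2-Q10 itself was not computed. H2-T24 and H2-Q10 passed as higher and none passed as lower by edgeR, against 6 higher and 1 lower by DESeq2 and 3 higher by limma-voom. The median log2 fold change was 0.74 over the 14. The groups did not overlap, with ATG7 higher, in 8 of the 14, and with ATG7 lower in 2. Over all genes, 6.33% separated with ATG7 higher, and 942 of 19199 with ATG7 lower. The class I-like genes Mr1, Hfe and Fcgrt, which lie outside the MHC, had log2 fold changes of -0.24, -0.23 and -0.08 (edgeR adjusted p = 0.203, 0.217 and 0.749), and none of them passed by edgeR, while Hfe passed as lower by DESeq2. Mr1, Hfe and Fcgrt were chosen after their values were seen, and 10 of the 14 tested genes had a log2 fold change above 0. Cd1d1, another class I-like gene of the list, was also tested and was not called by edgeR, DESeq2 or limma-voom.

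Of the 14 genes that make and load class I peptides, 3 passed by edgeR and all 3 were higher in ATG7. The median log2 fold change was 0.27 over the list. At an unadjusted edgeR p under 0.05, 12 of the 14 were higher and 0 lower, against 6.27% of all genes higher. The groups did not overlap, with ATG7 higher, in 10, against 6.33% of all genes. DESeq2 called 6 of the 14 and limma-voom 4, all higher. Tap1, a subunit of the peptide transporter, rose from a mean of 72.8 ± 7.82 to 124.6 ± 12.4 CPM (± SD), by 0.78 (edgeR adjusted p = 0.00705). The immunoproteasome subunit genes Psmb9 and Psmb8 were higher by 0.56 and 0.47 (edgeR adjusted p = 0.0208 and 0.0303). These 3 genes lie next to each other within the MHC. Over the whole interval from H2-K1 to H2-M3 (chromosome 17, 33996017 to 37274484), 127 genes that are not class I were tested. Of these, 4 passed, all higher: Tap1, Psmb8, Psmb9 and the complement gene C4b, where 0.688% of all genes were called higher. The groups did not overlap in 25 of the 127 with ATG7 higher and in 6 with ATG7 lower. Over all genes, 6.33% separated with ATG7 higher, and 942 of 19199 with ATG7 lower. The median log2 fold change of the 127 was 0.10, and 85 were above 0, against 9439 of all 19199 genes.

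Of the 19 genes listed as regulators of class I transcription, 5 passed by edgeR and all were higher in ATG7. At an unadjusted edgeR p under 0.05, 10 of the 19 were higher and 0 lower, against 6.27% of all genes higher. The groups did not overlap, with ATG7 higher, in 7, against 6.33% of all genes. DESeq2 called 7 of the 19 and limma-voom 6, all higher. Nlrc5, the class I coactivator, averaged 23.9 ± 7.53 CPM in the controls and 67.3 ± 4.29 CPM in ATG7 (± SD), and the log2 fold change was 1.498, SE 0.223, and the adjusted p 0.0282 (edgeR). Its lowest ATG7 library, at 62.8 CPM, was at 1.90 times the level of its highest EYFP library, at 33.0 CPM. Stat2, which carries interferon signals to the nucleus, was higher by 0.93 (edgeR adjusted p = 0.0137). The NF-kB subunit gene Nfkb2 was higher by 0.56 (edgeR adjusted p = 0.0354). Irf1, an interferon regulatory factor, was higher by 0.53 (edgeR adjusted p = 0.0483). The median over the 19 was 0.23, and Rfx5, Rfxap and Rfxank, whose products bind class I and class II promoters with NLRC5 or CIITA, had log2 fold changes of 0.10, -0.01 and 0.07 (edgeR adjusted p = 0.685, 0.989 and 0.853). Over the 19 alternatives, Tap1 was called in 17, Stat2 in 13, Nfkb2 in 11 and Nlrc5 in 10. Nlrc5 lost its call without EYFP 2, without EYFP 4 and without any 1 of the ATG7 libraries. Without EYFP 3 the calls of Nfkb2, Psmb8 and H2-Q10 were lost.

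None of the 12 tested genes for class I receptors passed by edgeR or limma-voom. At an unadjusted p under 0.05, 4 were higher, and DESeq2 called 1, Cd8a. The gene with the smallest p was Cd8a, the co-receptor of T cells that bind class I, whose mean was 0.614 ± 0.361 in the controls and 2.17 ± 1.51 CPM in ATG7 (± SD), with a log2 fold change of 1.82 (edgeR adjusted p = 0.230). None of the 10 class II genes passed by edgeR or limma-voom, 8 were higher at an unadjusted p under 0.05, and DESeq2 called 2, Cd74 and H2-Oa. Their log2 fold changes were all above 0, with a median of 0.37, and H2-Oa had the smallest p (0.39, edgeR adjusted p = 0.0847). Whether class I and class II genes differ in their change was not tested.

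**Figure D5:**
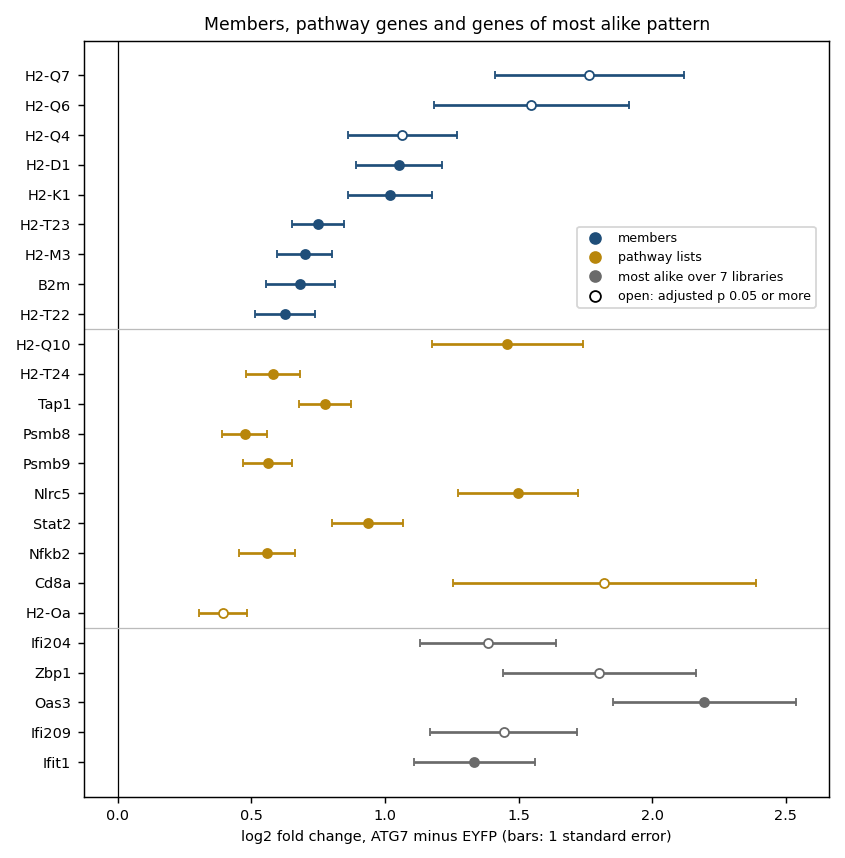
Log2 fold change with 1 SE (horizontal axis) of the 9 class I genes (blue, in order of size), genes from the pathway lists (gold) and the 5 genes of most alike pattern (grey), with open circles where the adjusted p was 0.05 or more. H2-Q7 at 1.77 and H2-Q6 at 1.55 are the largest of the 9 and are open.

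The genes whose log2 CPM most resembled the mean of the 9 over the 7 libraries were Ifi204, Zbp1, Oas3, Ifi209 and Ifit1, with Pearson r between 0.995 and 0.999. After group means were subtracted, r was between 0.976 and 0.995, so the resemblance included the order of libraries within the groups. Zbp1, which encodes a sensor of Z-form nucleic acids, averaged 10.99 ± 4.86 CPM in the controls and 38.1 ± 7.18 CPM in ATG7 (± SD). Ifit1, whose product binds viral RNA, was at 11.9 ± 3.53 and 29.9 ± 4.62 CPM. Libraries share depth and cell makeup, and these correlations are descriptions.

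Other cell types were measured because class I genes are expressed widely. Of the 11 T and NK cell markers, which share Cd8a and Klrd1 with the receptor list, none passed by edgeR or limma-voom, and DESeq2 called 4 higher (Cd3d, Cd8a, Gzmb and Nkg7). At an unadjusted edgeR p under 0.05, 6 were higher. The levels of 6 did not overlap between the groups, and 10 had a log2 fold change above 0, with a median of 1.35. Their summed level was 15.5 to 22.5 CPM in EYFP and 21.9 to 38.5 CPM in ATG7, overlapping between the groups. The summed level of 12 endothelial and pericyte markers was 791 to 1278 CPM in EYFP and 893 to 1609 CPM in ATG7, with none called by edgeR, DESeq2 or limma-voom and 1 higher at an unadjusted edgeR p under 0.05. With the endothelial score as a covariate, H2-K1, H2-D1, H2-T23 and H2-M3 passed. The choroid plexus markers summed to 55510 to 73250 CPM in EYFP and 46990 to 61960 CPM in ATG7, with all 11 log2 fold changes below 0, none called by any of the 3 tools, and 3 lower at an unadjusted edgeR p under 0.05. With the choroid plexus score as a covariate none of the 9 genes passed, at log2 fold changes of 0.62 to 1.69 and edgeR adjusted p of 0.0504 (H2-T23) to 0.536 (H2-Q6), although all 9 were higher at an unadjusted p under 0.05, as were 4.83% of all genes in that fit. Markers of neurons, astrocytes, the oligodendrocyte lineage, border macrophages, and monocytes, granulocytes and dendritic cells had summed levels that overlapped between the groups, and DESeq2 alone called 2 of them, Slc7a10 lower and Plac8 higher. No marker in any list was at 0 in all libraries. The part of these cell types in the class I differences was not tested.

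Reads of related class I genes can be shared, and the treatment of such reads is not given in the sources used here. Of the 100-base windows of annotated transcripts, 0.957% in H2-K1, 3.59% in H2-D1 and 3.15% in H2-T23 also occur in another gene, and 0% in H2-M3 and B2m. The shares were higher in H2-Q4 (14.1%), H2-Q6 (13%), H2-Q7 (12%) and H2-T22 (31.5%), whose values are uncertain. With 50-base windows the shares were 9.63% in H2-K1, 12.8% in H2-D1, 14.5% in H2-T23, 0.576% in H2-M3 and 0% in B2m. They were 36.4% in H2-Q4, 35% in H2-Q6, 26.5% in H2-Q7 and 53.5% in H2-T22. Neither window length sets a bound on the uncertainty. Part of the sharing in H2-Q4 and H2-T22 is antisense overlap. Gm11131 covers 19.1% of the exon bases of H2-Q4. It was itself at 2.81 ± 0.488 CPM in EYFP and 5.04 ± 0.478 CPM in ATG7 (± SD), without overlap between the groups. A930015D03Rik covers 29.4% of H2-T22. It was at 0.240 ± 0.101 CPM in EYFP and 0.482 ± 0.258 CPM in ATG7, with overlap. The strand setting of the counting is not given, so reads from these antisense genes cannot be told apart from those of H2-Q4 and H2-T22.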

How the data were processed

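The deposited file holds unnormalised whole-number counts for each gene in 7 libraries. The submitters' processing notes name fastp 0.20.1, HISAT2 2.0.5, featureCounts and the builds mm10 and GRCm38, without settings. All 7 columns were matched to libraries by name. GENCODE M21 gave symbols and positions for 55141 of 55401 identifiers. Promoters are RefSeq's, on GRCm38.p6, and all 9 genes matched.

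Counts were fitted with edgeR 4.0.16 (quasi-likelihood, robust) in R 4.3.3, with TMM factors, filterByExpr and no covariate. Tests were two-sided, p-values were adjusted by Benjamini-Hochberg over 19199 genes, and a gene was called at an adjusted p under 0.05. SE is the absolute log2 fold change over the square root of F. Log2 CPM used a prior count of 2. The fit was tested on simulated data. Libraries of a group differed by more than sampling noise (chi-square per degree of freedom of at least 20.98). P-values measure the spread between these libraries, which may be technical. Floors cover counting error only. Per-kilobase levels divide by the union of GENCODE exons.

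The class I genes, lists, motifs and tests were chosen with earlier results of these data known. Beside the 9 genes, the text names up to 4 passing genes per list by smallest p, or the single gene of smallest p, and the 5 genes of most alike pattern (mean CPM of at least 1). Irf1, Rfx5, Rfxap, Rfxank, Mr1, Hfe, Fcgrt, Cd1d1, C4b and the antisense genes were added after their values were seen. Alternatives used DESeq2 1.42.0 and limma 3.58.1. One gene that the rule names is not reported here.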

Additional observations from a re-analysis of the deposited data

How the results depend on the processing

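The number of class I genes called was 6, and it fell to 0 with the replicate block, in which EYFP 4 has no partner, and to 0 with the choroid plexus score as a covariate, while all 9 had an unadjusted edgeR p under 0.05 in both fits. It was between 1 and 8 when each library was left out in turn. It was 6 with no filter on low counts, and 9 with DESeq2 and with limma-voom. The number of genes called over the whole table was 145 in the reported fit. That number was 142, 138 and 140 with DESeq2 size factors, library size alone and upper quartile scaling. It was 297 with no filter on low counts (234 higher, 63 lower) and 153 at a mean CPM of at least 1. It was 582 with the DESeq2 Wald test (406 higher, 176 lower), 216 with limma-voom and 275 at an adjusted p under 0.1. With the endothelial score it was 71. With the choroid plexus score it was 15 (927 higher and 792 lower at an unadjusted edgeR p under 0.05). With the replicate block it was 0 (735 higher and 521 lower at an unadjusted edgeR p under 0.05). It was 28 to 277 when each library was left out. The ratio of H2-D1 to B2m differed by 0.42 and that of H2-K1 to B2m by 0.39 on the log2 scale with the replicate block, and by 0.32 to 0.43 and 0.29 to 0.40 without each library, all with an exact permutation p above 0.05 because fewer splits remain. For the other changes the cause was not tested. Replicate numbers are shared by label only: same-numbered libraries had correlations of -0.05, -0.18 and 0.07 in their deviations from group means. Over the 9 genes and 19 alternatives, 81 results kept a call, 33 lost it, 12 gained one, 45 stayed uncalled and 0 reversed. Leaving out the counts of Ttr and Enpp2, chosen after seeing the data, left the same 6 genes called. No value among the EYFP libraries of the 25 named genes stood apart by Dixon's critical value.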
